A study of Mus musculus with 6 samples.

Results

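The genes described here make cholesterol from acetyl-CoA, sense its level, pass it between compartments and export it from the cell. They were chosen by symbol from knowledge of the pathway, and all 27 were found once among the 55401 genes of the count files. Of them, 18 encode enzymes of synthesis, from *Acat2* and *Hmgcs1* at the start of the mevalonate arm to *Sc5d* and *Dhcr7* at the end of the route, 3 belong to sterol sensing (*Srebf2*, *Scap* and *Insig2*), 2 are sterol exporters (*Abca1* and *Abcg1*), and 4 act in lysosomal exit, transport and esterification (*Npc1*, *Npc2*, *Stard4* and *Soat1*). Their counts came from RNA sequencing of whole subcutaneous white adipose tissue (scWAT) of 8-week-old male mice. There were 3 control mice, labelled WT, and 3 mice labelled YT-AKO. The controls, called YT-FF here, carried floxed *Yap* and *Taz* alleles without Cre recombinase, and the YT-AKO mice the same floxed alleles with Cre under the *Adipoq* promoter. That promoter is active in mature adipocytes, so the alleles of other cells in the tissue were not targeted. *Yap1* and *Wwtr1*, the gene of TAZ, encode the co-activators that act at the end of the Hippo pathway. The study asked what their loss from adipocytes does to white fat. The labels give the libraries as separate samples and say no more about the mice, so p-values measure the spread between these libraries.

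Cells build cholesterol by condensing acetyl-CoA into HMG-CoA, reducing it to mevalonate, joining the isoprenoid units made from mevalonate into squalene, closing squalene to lanosterol, and trimming and desaturating lanosterol to cholesterol. When the sterol content of the endoplasmic reticulum falls, SCAP escorts the precursor of the transcription factor SREBP-2, encoded by *Srebf2*, to the Golgi, where it is cleaved and released to the nucleus to switch on most of these enzymes, and INSIG proteins hold SCAP back when sterols are plentiful. When sterols accumulate, oxysterols activate the nuclear receptor LXR, which induces the exporters ABCA1 and ABCG1. Cholesterol taken up with lipoproteins leaves the lysosome through NPC2 and NPC1. White fat stores a large pool of free cholesterol, much of it at the surface of the lipid droplet of its adipocytes.

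The start regions of these genes are shown first, because SREBP-2 acts at sites close to the start together with the factors NF-Y and Sp1. RefSeq promoter windows of the build GRCm38.p6, from 250 bases before the start to 50 after it, were held for 21 of the 27 genes, with 27 windows in all because 4 genes had more than 1 start. *Fdps*, *Fdft1*, *Sqle*, *Abcg1*, *Npc1* and *Stard4* had none. The 4 sequences printed here are the 180 bases just before the start of *Hmgcs1*, whose window held the sterol regulatory element searched for, of *Mvk* and *Ebp*, which rose, and of *Sc5d*, which fell. They lie at chr13:119690171-119690350 on the plus strand (*Hmgcs1*), chr5:114444089-114444268 on the plus strand (*Mvk*), chrX:8193513-8193692 on the minus strand (*Ebp*) and chr9:42264301-42264480 on the minus strand (*Sc5d*). Capitals mark CCAAT, the core of the NF-Y site, which reads ATTGG where it is on the other strand, and TCACNCCAC, the form of the sterol regulatory element searched for.
Hmgcs1: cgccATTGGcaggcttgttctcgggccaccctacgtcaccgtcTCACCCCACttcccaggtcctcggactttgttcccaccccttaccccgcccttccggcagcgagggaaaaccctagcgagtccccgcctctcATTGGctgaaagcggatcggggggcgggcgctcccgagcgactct
Mvk: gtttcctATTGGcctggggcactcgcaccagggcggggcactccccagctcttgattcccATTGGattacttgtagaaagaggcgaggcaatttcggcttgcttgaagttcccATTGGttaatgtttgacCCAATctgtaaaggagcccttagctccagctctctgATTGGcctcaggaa
Ebp: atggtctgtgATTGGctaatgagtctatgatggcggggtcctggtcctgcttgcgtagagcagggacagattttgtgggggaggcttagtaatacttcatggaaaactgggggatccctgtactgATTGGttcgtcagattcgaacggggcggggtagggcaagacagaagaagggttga
Sc5d: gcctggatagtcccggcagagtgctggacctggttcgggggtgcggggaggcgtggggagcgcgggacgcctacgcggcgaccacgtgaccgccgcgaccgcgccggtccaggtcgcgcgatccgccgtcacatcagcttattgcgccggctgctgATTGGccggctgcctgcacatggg

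In these stretches CCAAT occurred 2 times before *Hmgcs1*, 5 times before *Mvk*, 2 times before *Ebp* and 1 time before *Sc5d*. Over the whole windows and both strands, 18 of the 21 genes (85.7%) had a CCAAT, against 42.2% of the 11767 tested genes with a window and 37.4% of all 32851 promoter windows. *Acat2*, *Scap* and *Abca1* had none. Among the synthesis enzymes 14 of 15 had one, and among the other genes 4 of 6. GGGCGG, the core of the Sp1 site, was present in 20 of 21 genes (95.2%), against 64.7% of the tested genes and 35.7% of all windows. TCACNCCAC was found in *Hmgcs1* alone (1 of 21, 4.76%), against 1.44% of the tested genes and 1.24% of all windows, and GGAATG, the core site of the TEAD partners of YAP and TAZ, in *Npc2* alone (1 of 21, 4.76%), against 14.7% of the tested genes and 14.7% of all windows. The motifs were counted separately, and matches that overlap were all kept. A match is a description of the letters in a window and does not show that a factor binds there. Only this form of the sterol regulatory element was searched, so a window without it is not shown to lack such an element. *Mvk*, *Pmvk* and *Ebp*, which were called higher, and *Sc5d*, which was called lower, all carried CCAAT.

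**Figure D1:**
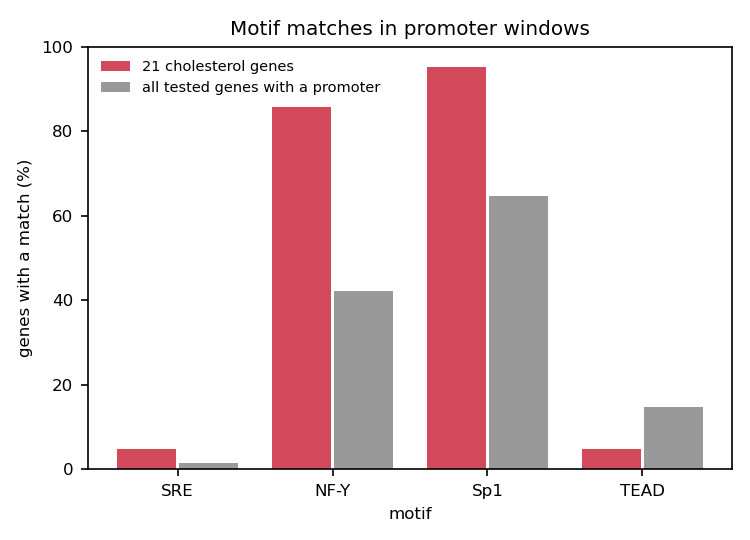
Share of genes (%, y axis) whose promoter window holds each motif (x axis: SRE, TCACNCCAC; NF-Y, CCAAT; Sp1, GGGCGG; TEAD, GGAATG), for the 21 cholesterol genes with a window (red) and all 11767 tested genes with a window (grey). The share with the NF-Y core was 85.7% in the cholesterol genes and 42.2% in the tested genes.

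The targeted genes and the tissue were checked first. The count of *Yap1* was 1622, 1300 and 1295 across the YT-FF libraries and 649, 492 and 529 across those labelled YT-AKO, and the gene fell by 0.98 on the log2 scale (adjusted p = 0.0179, edgeR quasi-likelihood test, Benjamini-Hochberg). The count of *Wwtr1* was 1818, 1729 and 1918 across the YT-FF libraries and 3015, 2253 and 2716 across the others, and the gene was 0.89 higher on that scale (adjusted p = 0.0220, same edgeR test), which goes against the label. The group is therefore named by its label throughout, and every direction below follows those labels. Counts over all exons do not show the loss of single exons. By immunoblot, the study reported less YAP and TAZ protein in scWAT of YT-AKO mice, and RNA counts of whole tissue do not measure protein. Total counts ran from 17740987 to 21838493 per library. The 6 adipocyte markers summed to 9181 to 14089 counts scaled to library size (CPM) in YT-FF and 15880 to 28512 CPM in the libraries labelled YT-AKO. The 1 of 6 called higher, *Fabp4*, made up much of these sums, with 4072 to 7199 CPM against 9159 to 20229 CPM. *Retn* did not overlap between the groups either (adjusted p = 0.102 in edgeR and 0.0243 in DESeq2). *Adipoq*, *Plin1*, *Cidec* and *Lep* overlapped. Of the 6 log2 fold changes 5 were positive, and that of *Lep* was -0.13. All 5 thermogenic markers were called higher. The 6 macrophage markers summed to 1008 to 1209 CPM against 1371 to 1708 CPM, most of it *Lyz2*. Of these 6, 0 were called by edgeR (2 had an unadjusted p under 0.05), DESeq2 or limma-voom. All 6 had positive values (median log2 fold change 0.39). Of 4 B cell markers 2 were called lower, and *Cd79a* and *Cd79b* overlapped between the groups. Of 4 T cell markers 1 was called lower and 3 had negative values, while *Cd3d* had a log2 fold change of 1.20 (adjusted p = 0.174, edgeR). Of 4 endothelial markers 1 was called lower and 3 had negative values, while *Vwf* had 0.46 (adjusted p = 0.0739, edgeR). With a correction for gene length, 1 of the 4 endothelial markers was called higher and 0 lower. The same correction left 0 of the 6 adipocyte markers called, *Fabp4* included. Of 4 skeletal muscle markers 1, *Acta1*, was called higher, and 0 were called with that correction. Their sums were 101 to 377 CPM in YT-FF and 2735, 413 and 205 CPM in YT-AKO 1, 2 and 3, so the top value was YT-AKO 1 alone. *Ckm*, *Myh4* and *Tnnt3* were lower in YT-AKO 3 than in every YT-FF library. The 4 fibroblast markers (3495 to 4428 CPM against 3761 to 6692 CPM) and 6 Schwann cell markers (259 to 328 CPM against 210 to 329 CPM) gave 0 calls by edgeR, DESeq2 or limma-voom and 0 unadjusted p under 0.05 in edgeR. All 4 fibroblast markers had positive values (median log2 fold change 0.40), and 2 had an unadjusted p under 0.05 in DESeq2 and 1 in limma-voom. With the correction for gene length, 2 fibroblast markers were called higher and 0 Schwann cell markers were called. Of the epithelial markers *Epcam* had 1.70 to 2.48 CPM over all 6 libraries (35 to 54 counts), *Krt14* had 0 to 2 counts, *Krt8* 0 to 14 and *Krt18* 0 to 11, the highest of both in YT-AKO 1. The part of these shifts in the values below was not tested, and in whole tissue fewer cells of a type and less RNA per cell cannot be told apart.

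Both groups were set against each other by the quasi-likelihood test of edgeR over the 16807 genes past its filter on low counts, and a gene was called changed at a Benjamini-Hochberg adjusted p under 0.05. All 27 cholesterol genes passed the filter. *Mvk*, *Pmvk* and *Ebp* rose, *Sc5d* and *Stard4* fell, and 22 genes were not called. The 3 genes called higher are 11.1% of the 27, where 12.6% of all tested genes were called higher, and the 2 genes called lower are 7.41%, where 9.01% of all tested genes were called lower. Both shares were close to those of the tested genes. The median log2 fold change was -0.02 over the 27 genes and -0.02 over all tested genes, with 13 positive and 14 negative values among the 27. TMM scaling places the bulk of all genes near 0, so this split holds relative to the other genes only. In CPM scaled with TMM factors, all 3 libraries labelled YT-AKO lay above all 3 YT-FF libraries for 6 genes (22.2%, against 25.7% of the tested genes) and below them for 9 (33.3%, against 25.8%), and the groups overlapped for 12. With DESeq2, the tool named in the study's methods, 4 genes were called higher (14.8%, against 15.0% of its tested genes) and 5 lower (18.5%, against 11.7%). It kept all 5 edgeR calls and added *Npc2* to the genes called higher and *Srebf2*, *Abca1* and *Npc1* to those called lower. For the upregulated genes of its pathway enrichment the study used a stricter call, a log2 fold change above 1 with an adjusted p under 0.01. Taken here in both directions, that call gave *Pmvk* and *Ebp* higher in DESeq2 (adjusted p = 0.00328 and 0.00123), where 7.07% of its tested genes were called higher. DESeq2 gave 0 of the 27 lower (3.56% of its tested genes), and 0 passed that call in edgeR. Scaling by library totals alone, which moved the median of all tested genes to -0.34, turned the edgeR calls to 1 higher (*Ebp*, 3.70%, against 6.77% of all tested genes) and 7 lower (25.9%, against 16.8%), with 8 positive and 19 negative values and a median of -0.36 over the 27. Over all tested genes it gave 1137 calls higher and 2828 lower, where TMM gave 2121 and 1515. All 5 edgeR calls were lost when any 1 of the YT-FF libraries was left out. Over all genes, edgeR then called 0 higher and 0 lower without YT-FF 1 (4665 had an unadjusted p under 0.05), 0 and 2 without YT-FF 2, and 704 and 528 without YT-FF 3.

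**Figure D2:**
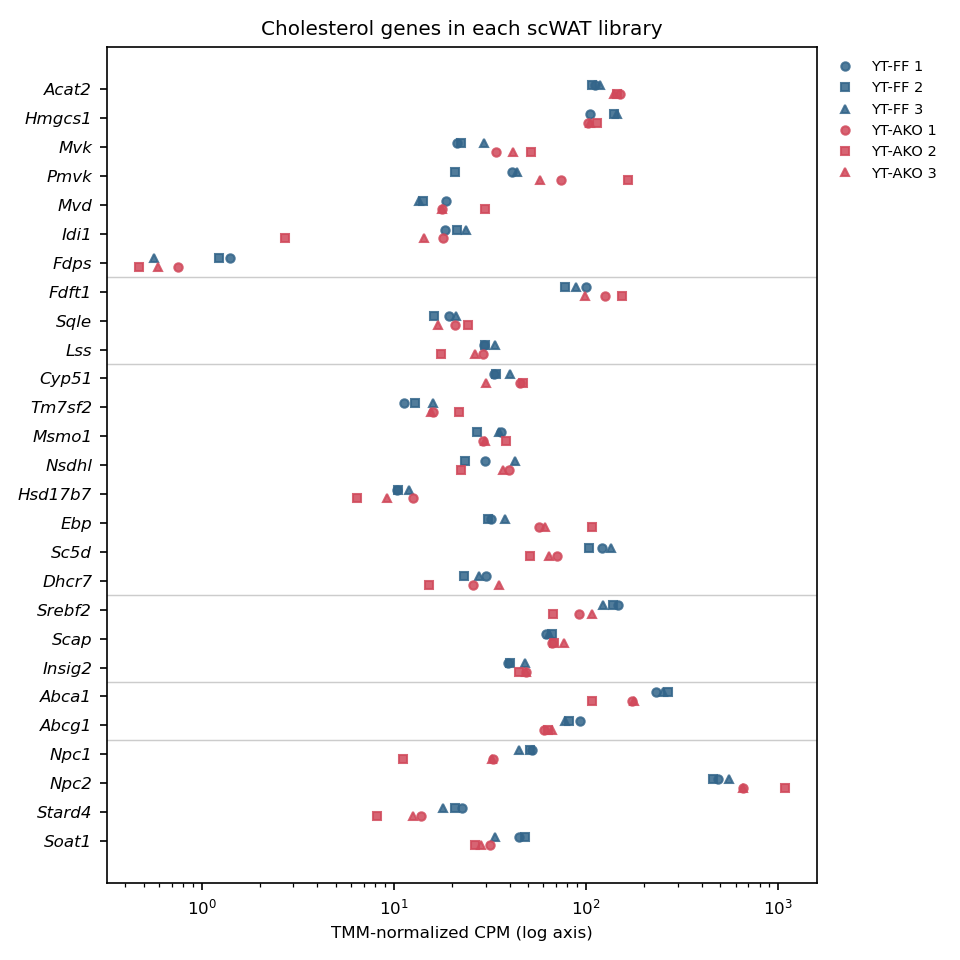
TMM-normalized CPM (x axis, log scale) of the 27 cholesterol genes (rows, grouped by role) in each YT-FF library (blue) and each library labelled YT-AKO (red), 1 point per library. *Ebp* and *Pmvk* show every red point to the right of every blue point, *Sc5d* and *Stard4* every red point to the left, and YT-AKO 2 is often the outermost red point.

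The mevalonate arm held 2 of the 3 genes called higher. *Mvk*, mevalonate kinase (ENSMUSG00000041939, chromosome 5, 114444269 to 114460591 of GRCm38), which adds the first phosphate to mevalonate, had 21.4, 22.3 and 29.4 CPM in YT-FF 1, 2 and 3 and 34.1, 51.4 and 41.4 CPM in YT-AKO 1, 2 and 3. The groups did not overlap, YT-AKO 2 being the highest. The mean and SD over 3 libraries went from 24.3 ± 4.36 CPM to 42.3 ± 8.71 CPM, and the log2 fold change was 0.80 (SE 0.210, adjusted p = 0.0366, edgeR with Benjamini-Hochberg adjustment). *Pmvk*, phosphomevalonate kinase (ENSMUSG00000027952, chromosome 3, 89454541 to 89469013), which acts next, had 41.2, 20.9 and 43.7 CPM in YT-FF and 74.3, 166.3 and 57.3 CPM in the libraries labelled YT-AKO. Its groups did not overlap either, but YT-AKO 2 lay far above the other two, and the log2 fold change of 1.49 (SE 0.442, adjusted p = 0.0478, edgeR) became 0.90 without that library (adjusted p = 0.0432). Both genes are short, with 2675 and 1713 exon bases, and a correction for gene length took them to 0.64 (adjusted p = 0.0688) and 1.12 (adjusted p = 0.0853, both edgeR), which are no longer calls.

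*Acat2*, a cytosolic acetyl-CoA acetyltransferase that forms acetoacetyl-CoA, had 111.6, 107.8 and 117.5 CPM in YT-FF and 150.2, 145.3 and 139.6 CPM in the libraries labelled YT-AKO. Its groups did not overlap, and its log2 fold change of 0.37 (SE 0.139) had an adjusted p of 0.0879 in edgeR. It shared 39.1% of its 50-base words with its neighbour *Acat3*, and fragments that match both could not be assigned. *Hmgcs1*, HMG-CoA synthase, whose start region holds the sterol regulatory element printed above, had 104.7, 139.0 and 144.3 CPM in YT-FF against 102.8, 114.4 and 105.1 CPM (log2 fold change -0.27, adjusted p = 0.271, edgeR), and the groups overlapped. *Mvd*, the decarboxylase that makes isopentenyl diphosphate, had 18.7, 14.2 and 13.4 CPM against 17.8, 30.0 and 17.8 CPM (0.50, adjusted p = 0.184), with the difference carried mainly by YT-AKO 2. *Idi1*, which isomerizes isopentenyl diphosphate, had 18.5, 21.3 and 23.6 CPM against 18.0, 2.71 and 14.3 CPM. YT-AKO 2 was again the one apart, here far below the rest, and the log2 fold change of -0.86 was -0.39 without it (adjusted p = 0.115). *Fdps*, farnesyl diphosphate synthase, stood at 0.472 to 1.41 CPM over the 6 libraries (8 to 33 counts, -0.82, adjusted p = 0.259), low for an enzyme of this arm. It shares 15.5% of its 50-base words with 7 other genes, and 26.7% of its exon bases lie under another gene model, so its counts are uncertain. Copies elsewhere share 17.7% of the 50-base words of *Idi1*, and 12.1% of the exon bases of *Hmgcs1* overlap a gene model on the other strand.

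The 3 enzymes between farnesyl diphosphate and lanosterol gave 0 calls by edgeR (1 had an unadjusted p under 0.05), DESeq2 or limma-voom. *Fdft1*, squalene synthase, had 99.99, 77.8 and 89.0 CPM in YT-FF and 124.9, 154.5 and 98.2 CPM in the libraries labelled YT-AKO, with a log2 fold change of 0.50 (adjusted p = 0.107, edgeR). YT-AKO 3 lay within the YT-FF range, and 18.8% of the exon bases overlap *Ctsb* on the other strand, whose fragments cannot be told apart in unstranded counts. *Sqle*, squalene epoxidase and a rate-limiting step of the pathway, stayed between 16.2 and 24.2 CPM in all 6 libraries (0.13, adjusted p = 0.642). *Lss*, which closes the ring to lanosterol, had 29.4, 29.8 and 33.5 CPM against 29.1, 17.6 and 26.5 CPM. Its groups missed each other narrowly, the log2 fold change was -0.34 (adjusted p = 0.262), and with the correction for gene length it was 0.11. With 10787 exon bases it was the second longest of the 27.

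The steps from lanosterol to cholesterol held the sharpest contrast, between neighbouring enzymes. *Ebp* (ENSMUSG00000031168, chromosome X, 8185329 to 8193512), the sterol isomerase that moves the double bond of the B ring, had 32.1, 31.0 and 37.9 CPM in YT-FF 1, 2 and 3 and 57.0, 107.3 and 61.3 CPM in YT-AKO 1, 2 and 3. Its mean and SD went from 33.7 ± 3.70 CPM to 75.2 ± 27.9 CPM (n = 3), and the log2 fold change was 1.16 (SE 0.260, adjusted p = 0.0261, edgeR), and it was the only one of the 27 whose libraries labelled YT-AKO all lay above YT-FF on the scale that also divides by exon length (TPM). *Sc5d* (ENSMUSG00000032018, chromosome 9, 42251595 to 42264256), lathosterol oxidase, which desaturates the product of that isomerase, had 120.9, 103.5 and 135.3 CPM in YT-FF and 70.5, 51.1 and 64.1 CPM in the libraries labelled YT-AKO. Its mean and SD went from 119.9 ± 15.9 CPM to 61.9 ± 9.89 CPM, and the log2 fold change was -0.95 (SE 0.184, adjusted p = 0.0203), the smallest adjusted p of the 27. *Ebp* and *Sc5d* were the 2 genes still called with the correction for gene length, at 0.91 (adjusted p = 0.0439) and -0.83 (adjusted p = 0.0249), and without YT-AKO 2 they stood at 0.81 and -0.83 (adjusted p = 0.00392 and 0.00570, all edgeR).

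Set against each other within a library, which removes the scaling between libraries, the *Ebp* to *Sc5d* ratio per kilobase of exon was 0.559, 0.631 and 0.590 in YT-FF 1, 2 and 3. It was 1.70, 4.42 and 2.02 in YT-AKO 1, 2 and 3. Per kilobase of summed exon length, *Sc5d* was thus above *Ebp* in every YT-FF library and below it in every library labelled YT-AKO. That crossing depends on the lengths used. In raw counts *Ebp* was below *Sc5d* in YT-AKO 1 (980 against 1212) and YT-AKO 3 (1038 against 1085). It was above *Sc5d* in YT-AKO 2 (1819 against 866). The geometric means differed 4.18-fold (two-sided exact permutation test, p = 0.1, the smallest p that 3 libraries against 3 allow). The pair was picked after its values were seen. *Ebp* has 2310 exon bases and *Sc5d* 4866, and the ratio does not correct for the relation of fold change to length described below. With the correction for gene length the log2 fold changes of *Ebp* and *Sc5d* were closer, at 0.91 and -0.83 against 1.16 and -0.95 without it. The other 6 enzymes of this stretch were not called, and their groups overlapped. *Cyp51*, which removes the first methyl group, had 33.2, 34.0 and 40.1 CPM against 45.3, 46.9 and 30.0 CPM, and *Tm7sf2*, a sterol reductase, 11.3, 12.8 and 15.9 CPM against 16.0, 21.7 and 15.5 CPM, with 12.1% of its exon bases under the gene model of *Vps51*. *Msmo1* and *Nsdhl*, which take part in removing the C4 methyl groups, had log2 fold changes of -0.02 and 0.04, *Hsd17b7*, the ketoreductase of that complex, -0.22, and *Dhcr7*, the last enzyme, -0.09. *Msmo1*, *Nsdhl* and *Dhcr7* changed sign with the correction for gene length, to 0.23, -0.084 and 0.097, and *Nsdhl* and *Cyp51* also with scaling by library totals alone, to -0.24 and -0.15.

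Of the 3 sensing genes 0 passed the edgeR test (1 had an unadjusted p under 0.05), and DESeq2 called 1 lower. *Srebf2* had 147.1, 137.7 and 122.1 CPM in YT-FF and 91.6, 67.3 and 106.8 CPM in the libraries labelled YT-AKO, with no overlap, a log2 fold change of -0.61 and an adjusted p of 0.0611 in edgeR (0.0341 in DESeq2). With the correction for gene length it stood at -0.32 (adjusted p = 0.176, edgeR). *Scap*, which escorts its product, had 61.9, 66.6 and 63.8 CPM against 66.7, 68.4 and 76.6 CPM. These groups did not overlap either, in the other direction and by a small margin, and the log2 fold change was 0.14 (adjusted p = 0.478, edgeR). *Insig2*, the retention protein, had 39.3, 40.2 and 48.2 CPM against 48.4, 44.8 and 48.8 CPM (0.15, adjusted p = 0.467). *Scap* and *Insig2* turned to -0.19 and -0.16 with library totals alone, and 13.2% of the exon bases of *Scap* overlap a gene model on the other strand.

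Both exporters had lower values in every library labelled YT-AKO, and neither passed the edgeR test. *Abca1*, which loads cholesterol onto lipid-poor apolipoproteins, had 230.5, 266.7 and 250.9 CPM in YT-FF and 172.9, 107.7 and 177.9 CPM in the libraries labelled YT-AKO. The log2 fold change of *Abca1* was -0.71 (SE 0.220, adjusted p = 0.0547 in edgeR and 0.0188 in DESeq2), and YT-AKO 2 was the lowest. *Abcg1*, which exports to high-density lipoprotein, had 93.4, 81.2 and 78.1 CPM against 60.1, 63.2 and 66.4 CPM, closely packed in the second group, and a log2 fold change of -0.41 (SE 0.146, adjusted p = 0.0744, edgeR). With the correction for gene length they stood at -0.28 and -0.09 (adjusted p = 0.254 and 0.685). The *Abca1* to *Abcg1* ratio per kilobase was 1.74, 2.31 and 2.26 in YT-FF and 2.03, 1.20 and 1.89 in the libraries labelled YT-AKO, which overlap (0.796-fold, two-sided exact permutation test, p = 0.3).

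Of the genes that carry and store sterol, *Stard4* fell. *Stard4* (ENSMUSG00000024378, chromosome 18), a soluble carrier that moves sterol between membranes, had 22.5, 20.7 and 18.0 CPM in YT-FF and 13.8, 8.20 and 12.5 CPM in the libraries labelled YT-AKO. The groups did not overlap, and the log2 fold change was -0.83 (SE 0.235, adjusted p = 0.0437, edgeR), or -0.65 with the correction for gene length (adjusted p = 0.0601), which is no longer a call. *Npc1*, the membrane protein of lysosomal exit, had 52.4, 50.8 and 44.9 CPM against 32.9, 11.2 and 32.6 CPM, and *Npc2*, the soluble protein that hands cholesterol to it, had 483.5, 455.8 and 555.1 CPM against 654.2, 1083 and 652.2 CPM. Neither pair of groups overlapped, in opposite directions, and neither gene was called by edgeR, with log2 fold changes of -0.95 (adjusted p = 0.0951) and 0.68 (adjusted p = 0.0817). DESeq2 called both, with adjusted p of 0.0383 and 0.0445. With the correction for gene length *Npc1* stood at -0.52 and *Npc2* at 0.89 (adjusted p = 0.232 and 0.0728, edgeR). *Soat1*, which esterifies cholesterol for storage, had 44.9, 48.1 and 33.5 CPM against 31.5, 26.5 and 28.5 CPM (-0.55, adjusted p = 0.0632, edgeR), and -0.11 with the correction for gene length.

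The *Npc2* to *Npc1* ratio per kilobase was 19.2, 18.7 and 25.7 in YT-FF 1, 2 and 3 and 41.4, 201.1 and 41.7 in YT-AKO 1, 2 and 3, with YT-AKO 2 far above the rest. The geometric means differed 3.35-fold (two-sided exact permutation test, p = 0.1, the smallest possible). This pair was also picked after its values were seen, and its members differ in length, with 11317 exon bases for *Npc1*, the longest of the 27, and 5438 for *Npc2*. The *Mvk* to *Hmgcs1* ratio was 0.351, 0.275 and 0.349 in YT-FF and 0.569, 0.772 and 0.677 in the libraries labelled YT-AKO (2.07-fold, p = 0.1 by the same exact permutation test). This pair sets a gene called higher against one with a negative value, so its direction followed from those values. Its genes also differ in length, with 2675 exon bases for *Mvk* and 4594 for *Hmgcs1*.

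**Figure D3:**
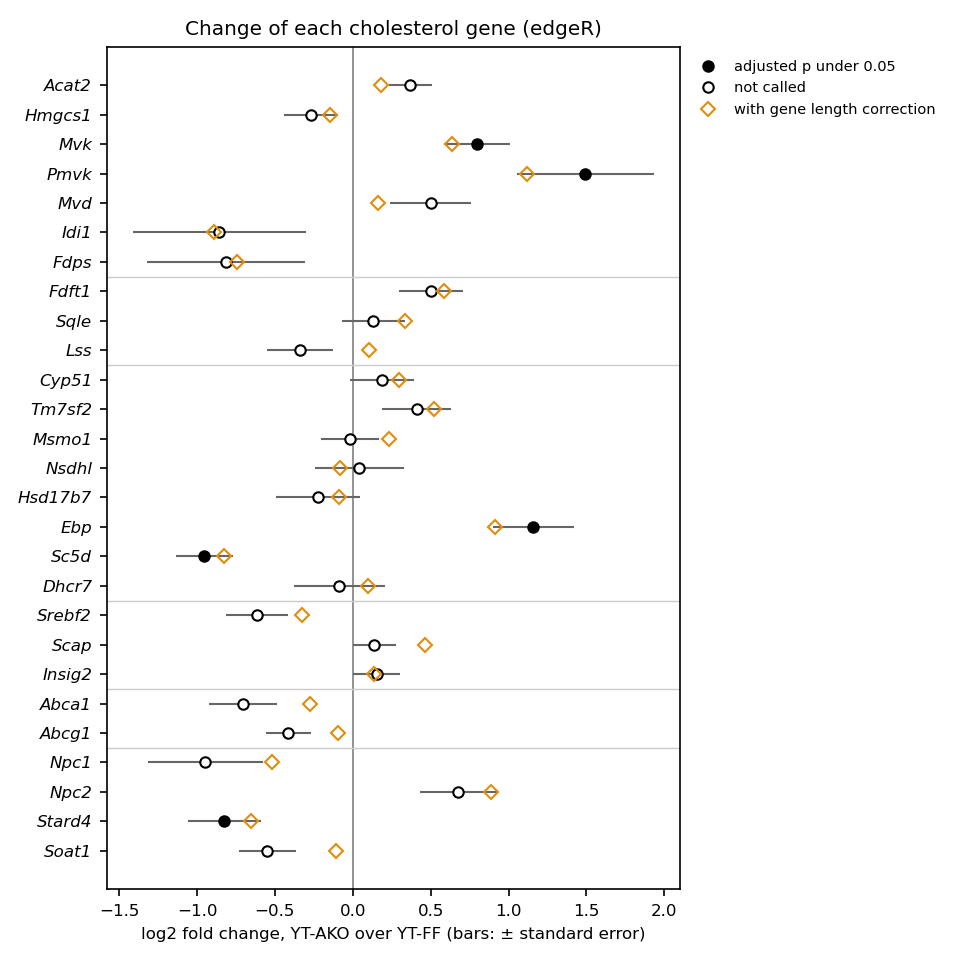
Log2 fold change of the 27 cholesterol genes (x axis, libraries labelled YT-AKO over YT-FF, bars ± standard error) from edgeR, by role. Filled circles passed an adjusted p under 0.05, and orange diamonds give the value with the correction for gene length, under which *Ebp* and *Sc5d* were still called.

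The differences followed gene length, here as in the whole table. Over the 27 genes log2 fold change and summed exon length had a Spearman's rho of -0.61, and over all tested genes it was -0.38, both across genes of the same 6 libraries, which are not independent replicates. Of the 8 cholesterol genes with under 4000 exon bases 7 had positive values, with a median of 0.44, and of the 19 longer ones 6 did, with a median of -0.27. All tested genes gave medians of 0.32 and -0.26 for the same split, which was chosen after the values were seen. YT-AKO 2 had the smallest TMM factor (0.777, against 0.954 and 0.955 in the other libraries labelled YT-AKO and 1.07 to 1.16 in YT-FF) and had counts for 20501 genes, where the other 5 libraries had counts for 22810 to 24576. For 24 of the 27 genes YT-AKO 2 was the highest (11) or the lowest (13) of the libraries labelled YT-AKO. Among 3 libraries, each is the highest or the lowest for many genes. This was not counted over all tested genes, so it is not shown to be particular to the 27. Without YT-AKO 2, edgeR called 4 cholesterol genes higher (14.8%, against 16.9% of all tested genes) and 6 lower (22.2%, against 14.0%). Without YT-AKO 1 it called 2 higher (7.41%, against 12.7%) and 2 lower (7.41%, against 8.24%), and without YT-AKO 3 it called 2 higher (7.41%, against 10.2%) and 1 lower (3.70%, against 5.12%). What lies behind the relation to length was not tested.

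**Figure D4:**
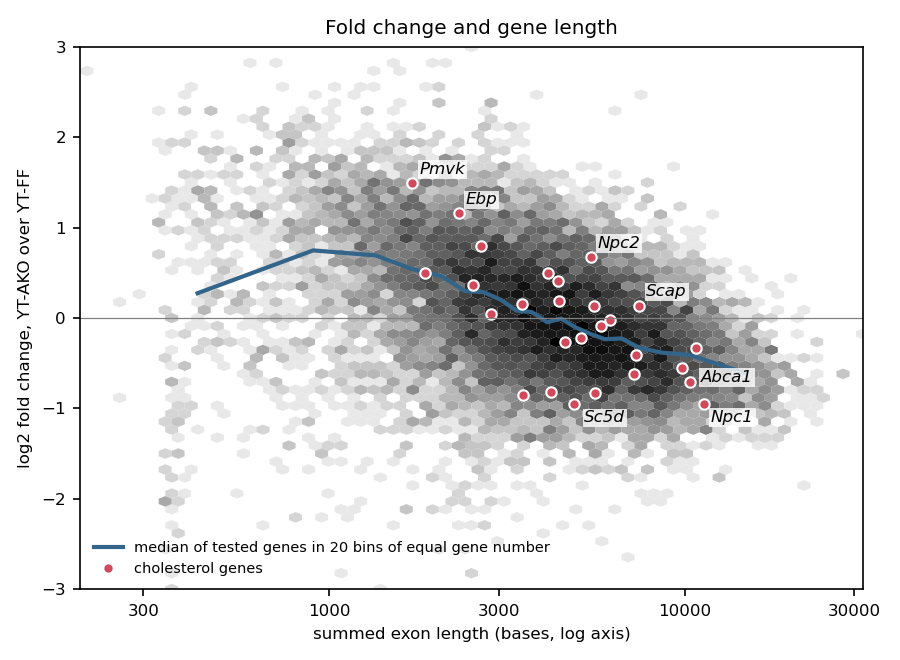
Log2 fold change (y axis, libraries labelled YT-AKO over YT-FF, points far from 0 lie outside the axis) against summed exon length (x axis, bases, log scale) for all tested genes (grey, darker where denser), with their running median (blue line) and the 27 cholesterol genes (red). The short *Pmvk* and *Ebp* lie high and the long *Npc1* and *Abca1* low, along with the median, while *Sc5d* lies well below the line at its length.

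Levels were compared between genes in TPM, which divides by the summed length of all exons listed for a gene. Which of these exons were in use was not measured, so the order of genes holds on this scale only. In YT-FF, *Npc2* was the most abundant of the 27, at 346.9 ± 19.2 TPM (mean ± SD, n = 3), followed by *Acat2* at 167.5 ± 1.08 TPM and *Hmgcs1* at 106.8 ± 16.9 TPM. *Sc5d* (93.3 ± 8.38 TPM), *Abca1* (91.5 ± 8.82 TPM) and *Fdft1* (82.0 ± 9.996 TPM) came next and did not differ beyond their spread. *Srebf2* stood at 71.9 ± 9.29 TPM, *Sqle* at 12.9 ± 1.19 TPM, *Hsd17b7* at 8.14 ± 0.340 TPM, and *Fdps* was last at 0.97 ± 0.429 TPM. In the libraries labelled YT-AKO *Npc2* was again the most abundant, at 336.8 ± 11.5 TPM, *Acat2* stood at 138.0 ± 33.7 TPM, *Pmvk* at 127.3 ± 39.9 TPM and *Ebp* at 74.1 ± 6.52 TPM, above *Hmgcs1* at 56.1 ± 10.8 TPM and *Sc5d* at 31.5 ± 11.6 TPM. TPM lowers most genes in these libraries. Mean TPM was lower in the libraries labelled YT-AKO for 24 of the 27 genes and for 79.3% of all tested genes, with a median log2 ratio of -0.66 in both. All 3 libraries labelled YT-AKO lay below YT-FF in TPM for 17 of the 27 genes (54.5% of all tested genes did so) and above it for 1 (7.52% of all tested genes).

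The genes around the pathway were described from 8 lists of other genes, 72 in all. Of the 70 tested, 13 were called higher (18.6%, where 12.6% of all tested genes were) and 3 lower (4.29%, where 9.01% were), with a median log2 fold change of 0.12. With the correction for gene length 12 were called higher (17.1%, against 9.92% of all tested genes) and 1 lower (1.43%, against 4.30%). With library totals alone the counts turned to 2 higher (2.86%, against 6.77%) and 5 lower (7.14%, against 16.8%). They were 0 higher and 0 lower without YT-FF 1 or YT-FF 2 and 5 and 0 without YT-FF 3, and the higher calls were 7 without YT-AKO 3. These are counts beside the background, without a test of the lists. Among 9 tested genes of LXR signalling and oxysterols 2 rose. *Nr1h3*, which encodes LXRα, the receptor that induces *Abca1* and *Abcg1*, had 79.0, 83.9 and 102.3 CPM in YT-FF and 152.8, 239.6 and 161.4 CPM in the libraries labelled YT-AKO, without overlap. It rose by 1.06 on the log2 scale (SE 0.220, adjusted p = 0.0226, edgeR), and by 0.86 with the correction for gene length (adjusted p = 0.0372), while both exporters had values of the other sign. *Rxrb*, one of its partner receptors, rose by 0.53 (adjusted p = 0.0481), and stood at 0.60 with the length correction, where it was not called (adjusted p = 0.0532).

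Of 11 genes of SREBP processing and enzyme turnover 2 fell. *Mbtps2*, the second protease that frees SREBP-2 from the membrane, fell by 0.79 (adjusted p = 0.0246), and *Rnf145*, a sterol-responsive ubiquitin ligase, fell by 0.72 (adjusted p = 0.0463). Both are long, and neither was called with the correction for gene length, at -0.34 and -0.40. *Srebf1*, the gene of SREBP-1, had a log2 fold change of 0.01 (adjusted p = 0.973). It was named after its value was seen.

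Upstream of the pathway, 2 of 5 genes of acetyl-CoA supply rose. *Slc25a1*, the mitochondrial citrate carrier, had 592.7, 495.6 and 628.8 CPM in YT-FF and 1721, 997.1 and 992.7 CPM in the libraries labelled YT-AKO (1.11, adjusted p = 0.0296), with YT-AKO 1 the highest, and was not called with the correction for gene length (0.85, adjusted p = 0.0652). *Acat1*, the mitochondrial acetoacetyl-CoA thiolase, rose by 0.84 (adjusted p = 0.0243, edgeR). Of 13 genes of the isoprenoid branches 3 rose. They include *Coq2* and *Pdss2*, which make ubiquinone, the electron carrier of the respiratory chain, and rose by 0.66 and 0.79 (adjusted p = 0.0239 and 0.0309). Among 5 other sterol enzymes and electron donors 3 rose. *Cyb5a*, cytochrome b5, which feeds electrons to *Sc5d* and *Msmo1*, rose by 0.83 (adjusted p = 0.0271), and *Ebpl*, a relative of *Ebp*, rose by 1.28 (adjusted p = 0.0372, all edgeR). *Lbr*, the lamin B receptor, which is also a sterol reductase, had 82.2, 80.6 and 78.3 CPM in YT-FF and 46.8, 11.7 and 35.3 CPM in YT-AKO 1, 2 and 3. The groups did not overlap, and a log2 fold change of -1.36 was the widest of this list. edgeR did not call *Lbr* (adjusted p = 0.0556), while DESeq2 called it lower (adjusted p = 0.00527). It was named after its value was seen.

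Of 14 sterol carriers 2 rose and 1 fell. *Scp2*, sterol carrier protein of the peroxisome, had 483.4, 497.8 and 595.8 CPM in YT-FF and 928.7, 1055 and 896.8 CPM in the libraries labelled YT-AKO (0.87, adjusted p = 0.0235), and *Osbpl8*, an oxysterol-binding protein relative at contacts of the endoplasmic reticulum with the plasma membrane, fell by 1.01 (adjusted p = 0.0250, edgeR). Both were called with the correction for gene length too, at 0.86 and -0.61 (adjusted p = 0.0303 and 0.0438). Of 4 genes of cholesteryl ester turnover 1 rose, *Lipe*, hormone-sensitive lipase (0.84, adjusted p = 0.0477), which also hydrolyses cholesteryl esters, and *Nceh1*, another ester hydrolase, had -0.37 (adjusted p = 0.264). Of 9 tested genes of lipoprotein uptake and the lysosome 0 were called by edgeR, DESeq2 or limma-voom, 0 had an unadjusted p under 0.05 in edgeR, and the 2 with the smallest p were *Lrpap1* (0.46, adjusted p = 0.132) and *Scarb2* (0.23, adjusted p = 0.307). In limma-voom 1 of these genes had an unadjusted p under 0.05. With the correction for gene length edgeR called 0, and 3 had an unadjusted p under 0.05, all with positive values.

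**Figure D5:**
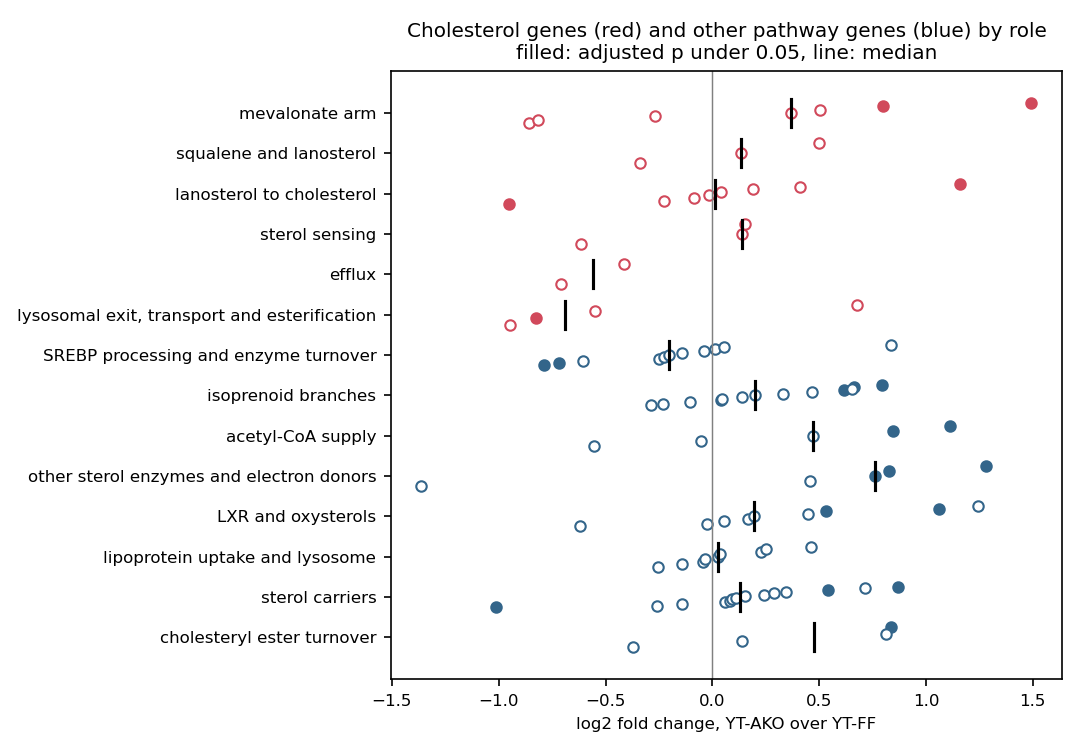
Log2 fold change (x axis, libraries labelled YT-AKO over YT-FF) of the 27 cholesterol genes (red) and the 70 other pathway genes tested (blue), 1 point per gene, by role (rows). Filled points passed an adjusted p under 0.05 and bars mark medians, which run from -0.69 for lysosomal exit, transport and esterification to 0.76 for the other sterol enzymes and electron donors.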

How the data were processed

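The RNA-seq libraries of scWAT came from 3 mice labelled WT (YT-FF) and 3 labelled YT-AKO, grouped by the genotype in the labels. The authors used HISAT2 for alignment to GRCm38 (mm10) and featureCounts 2.0.1 for fragment counts on exons, without regard to strand and leaving out fragments that matched several places or genes. The deposited values are raw counts per gene, not normalized, beside each gene's summed exon length. Symbols were matched by identifier for 55141 of 55401 genes (260 were not), and 30027 had at least 1 count. Total counts set the precision, and 3 counts equal 0.128 to 0.177 CPM in these libraries, a floor for counting error only since fragments carry no molecular identifiers.

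Counts were tested with edgeR 4.0.16 in R 4.3.3 (filterByExpr with minimum count 10 and minimum total 15, TMM, quasi-likelihood without robust estimation, Benjamini-Hochberg over 16807 genes). The biological coefficient of variation was 0.288. CPM uses the TMM factors, TPM the summed exon lengths, and the length correction fitted a library-wise spline on 6 degrees of freedom. Ratios were compared with exact permutation tests. RefSeq promoter windows were searched on both strands for the SRE, NF-Y, Sp1 and TEAD motifs. Shared sequence was counted in words of 50 bases. The alternatives were DESeq2 1.42.0, limma-voom (limma 3.58.1), DESeq2 size factors, upper-quartile scaling, library totals alone, other filters, the replicate number as a block, robust estimation, the length correction, the stricter call of the study taken in both directions, promoter bases before the start alone, and each library left out. The length correction without YT-AKO 2 was added after seeing the data.

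The genes named are the 27 cholesterol genes, *Yap1*, *Wwtr1*, the markers, and from each other list the 2 tested genes with the smallest p. *Srebf1* and *Lbr* were added after their values were seen. Of the genes on the lists 1 was not found by symbol and is not analysed here. The genes, lists and tests were chosen with earlier results of these data known. Some genes of the pathway are not reported here.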

Additional observations from a re-analysis of the deposited data

How the results depend on the processing

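Of the 27 cholesterol genes 3 were called higher and 2 lower, and the median log2 fold change of the 18 synthesis genes was 0.09. Robust estimation called the same 5 genes. limma-voom and DESeq2 size factors each called 2 higher and 3 lower, without *Pmvk* (adjusted p = 0.0507 in both) and with *Abca1* (0.0492 and 0.0497), and upper-quartile scaling called 3 and 3, with *Abca1* added (0.0499). Of all tested genes, limma-voom called 11.8% higher and 9.8% lower. DESeq2 size factors gave 12.2% and 9.45%, and upper-quartile scaling 11.7% and 9.96%. DESeq2 called 5 lower, and 5 of the 70 other pathway genes lower. With no filter, and with at least 10 counts in every library, 4 were called lower, *Fdps* not being tested under the latter. Of all tested genes, 5.86% and 12% were called lower in these fits. With library totals alone, 1 was called higher and 7 lower, the synthesis median was -0.22, the other pathway genes gave 2 higher and 5 lower, *Wwtr1* stood at 0.59 (adjusted p = 0.0798, edgeR), and *Sqle* (-0.21), *Cyp51* (-0.15), *Nsdhl* (-0.24), *Scap* (-0.19), *Insig2* (-0.16) and *Scarb2* (-0.085) changed sign. The correction for gene length left 1 higher (3.70%, against 9.92% of all tested genes) and 1 lower (3.70%, against 4.30%). Of the other pathway genes 1 was then lower (1.43%). The correction changed the sign of *Lss* (0.11), *Msmo1* (0.23), *Nsdhl* (-0.084) and *Dhcr7* (0.097). Without YT-AKO 2 it called 2 higher and 2 lower, where 15.3% and 8.32% of all tested genes were called. It then changed the sign of *Mvd* (-0.029), *Lss* (0.20), *Hsd17b7* (0.077) and *Dhcr7* (0.31). The cause of these changes was not tested. The stricter call, which the study used for upregulated genes and which is taken here in both directions, asks for a log2 fold change beyond 1 besides an adjusted p under 0.01. It left 0 and 0 of the 5 edgeR calls, and 2 higher (*Pmvk* and *Ebp*) and 0 lower in DESeq2. Promoter bases before the start alone left the Sp1 share at 90.5%.

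Same-numbered libraries of the 2 groups did not deviate together (r = 0.126, -0.118 and -0.0893 over genes), so the numbers were not taken to pair the mice. With the replicate number as a replicate block, edgeR called 0 higher and 0 lower of the cholesterol genes (9 had an unadjusted p under 0.05) and 0 and 0 of the other pathway genes, and *Yap1* stood at -0.98 (adjusted p = 0.0584) and *Wwtr1* at 0.89 (adjusted p = 0.0618). Over all genes it called 24 and 9. The replicate block with the length correction gave 0 and 0 again (6 with an unadjusted p under 0.05), *Yap1* at -0.57 (adjusted p = 0.109), *Wwtr1* at 1.02 (adjusted p = 0.0604), and changed signs in *Lss* (0.11), *Msmo1* (0.21), *Nsdhl* (-0.085) and *Dhcr7* (0.049).

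Leaving out each library by itself, the cholesterol genes called ranged from 0 to 4 higher and from 0 to 6 lower, the other pathway genes from 0 to 16 higher and from 0 to 5 lower, and the synthesis median from -0.056 to 0.25, highest without YT-FF 3. Calls were 0 and 0 without any 1 YT-FF library. They were 2 higher and 2 lower without YT-AKO 1 (7.41% and 7.41%, against 12.7% and 8.24% of all tested genes). Without YT-AKO 2 they were 4 and 6 (14.8% and 22.2%, against 16.9% and 14.0%), and without YT-AKO 3 they were 2 and 1 (7.41% and 3.70%, against 10.2% and 5.12%). *Yap1* ranged from -1.08 to -0.90 and *Wwtr1* from 0.81 to 1.03, with adjusted p (edgeR) up to 0.111 and 0.123. *Msmo1* ranged from -0.16 to 0.067, *Nsdhl* from -0.14 to 0.31 and *Dhcr7* from -0.39 to 0.18. With 3 libraries a group, differences under the spread between mice could not be seen, and genes such as *Fdps*, with 8 to 33 counts, are limited by depth.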
